A study of Mus musculus with 2 samples.

Results

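The Janus kinases (JAKs) and the suppressors of cytokine signalling (SOCS) were followed here as 10 genes, the 4 kinases Jak1, Jak2, Jak3 and Tyk2 and the 6 SOCS-family genes Cish, Socs1, Socs2, Socs3, Socs6 and Socs7. They were picked by gene symbol from the 34745 genes of the deposited expression data, where each symbol is listed once. The rule used no measured value, but the genes were chosen with earlier results of these data known. Monocytic myeloid-derived suppressor cells (M-MDSC) were grown from wild-type mouse bone marrow for 7 days under GM-CSF. One culture also received the cyclic helix B peptide CHBP, a peptide derived from erythropoietin (CHBP+), and the other did not (CHBP-). The cells were then sorted as CD11b+Ly6G-Ly6C high, and the RNA of each condition was sequenced as 1 library, without replicates. Marrow came from mice of 6 to 8 weeks, GM-CSF was given at 50 ng/ml in both cultures, and the methods list CHBP at 20 μM while the dose series was in nM. The strain label reads C57BL/6 for the CHBP- sample, while that of the CHBP+ sample reads C57BL/7. How many mice gave marrow to each culture is not given in the sources used here, and the 2 libraries differ in the CHBP treatment together with anything else that differed between the cultures, which cannot be told apart.

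JAKs are tyrosine kinases bound to the inner tails of cytokine receptors. When a cytokine pulls receptor chains together, the JAKs phosphorylate each other, the receptor and the STAT factors, which then enter the nucleus. GM-CSF and erythropoietin receptors use Jak2, interferon receptors use Jak1 with Tyk2 or Jak2, and receptors with the common gamma chain use Jak1 with Jak3. SOCS proteins are the feedback arm. CISH, SOCS1, SOCS2 and SOCS3 are made from genes that STATs switch on, they bind to receptors or JAKs through an SH2 domain, and their SOCS box recruits a ubiquitin ligase built on elongins B and C and cullin 5. SOCS6 and SOCS7 share this architecture and are known mainly for acting on receptor tyrosine kinases and insulin signalling.

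Since STATs act on the SOCS genes through their promoters, the promoters of 3 STAT-inducible members are shown first. They are from RefSeq on GRCm38.p6, run 5′ to 3′ on the gene's own strand from 250 bases before the start site to 50 after it, and carry in capitals the STAT-type motif TTCNNNGAA, which reads the same on both strands. The Cish window lies at chr9:107296409-107296708 on the plus strand, that of Socs3 at chr11:117969317-117969616 on the minus strand and that of Socs1 at chr16:10785487-10785786 on the minus strand.
Cish: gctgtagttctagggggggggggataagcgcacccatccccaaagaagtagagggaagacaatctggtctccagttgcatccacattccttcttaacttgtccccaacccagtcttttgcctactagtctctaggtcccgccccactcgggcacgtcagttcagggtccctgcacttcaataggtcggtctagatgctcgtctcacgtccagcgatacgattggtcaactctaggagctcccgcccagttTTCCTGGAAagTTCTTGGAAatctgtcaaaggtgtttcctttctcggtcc
Socs3: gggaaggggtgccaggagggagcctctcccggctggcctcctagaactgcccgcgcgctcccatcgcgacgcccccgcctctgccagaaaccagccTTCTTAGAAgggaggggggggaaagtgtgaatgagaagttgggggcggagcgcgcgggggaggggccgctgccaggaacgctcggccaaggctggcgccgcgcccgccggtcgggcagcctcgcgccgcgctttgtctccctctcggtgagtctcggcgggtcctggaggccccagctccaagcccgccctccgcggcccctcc
Socs1: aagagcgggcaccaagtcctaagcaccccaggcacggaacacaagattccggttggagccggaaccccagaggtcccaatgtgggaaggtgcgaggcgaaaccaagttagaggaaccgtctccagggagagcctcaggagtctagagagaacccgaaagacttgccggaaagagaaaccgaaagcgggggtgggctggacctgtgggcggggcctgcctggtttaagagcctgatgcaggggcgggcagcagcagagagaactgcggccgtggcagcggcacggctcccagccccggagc
The Cish window held the motif at 2 places, from base 1 to 9 and from base 12 to 20 counted from the start site, and the matches did not overlap. In Socs3 it was found once, from base -154 to -146. Socs1 is shown because it had the lowest fold of the 10 genes, and its window held no TTCNNNGAA. Windows were found for 7 of the 10 genes (Jak1, Jak2, Jak3, Tyk2, Cish, Socs1 and Socs3), and only those of Cish and Socs3 held the motif, against 8.30% of 32851 mouse promoters of the same length. The longer spacing, TTC and GAA with 4 bases between, which also reads the same on both strands, was in 0 of the 7 and in 6.95% of all promoters. The RefSeq start site lay 633 bases from the deposited 5′ end of the gene for Cish, 681 for Socs3 and 0 for Socs1. For Jak2 and Tyk2 it lay outside the deposited span, by 25 and 3929 bases. Which start site these cells used was not tested. A match is a match of letters, and binding was not measured.

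The libraries were of nearly equal depth, with 16484504 reads assigned to genes for CHBP- M-MDSC against 16280466 for CHBP+. Values are given as reads, as the deposited FPKM (reads per kilobase of gene, scaled to the total of counted reads), and as the fold of CHBP+ over CHBP- M-MDSC, which is the ratio of reads scaled to these totals. Each fold has an exact Clopper-Pearson 95% interval that covers counting error only, since 1 library per condition holds no replicate spread and no test between the conditions was made. In these sorted cells, fewer cells of a type and less RNA per cell cannot be told apart. Itgam, which encodes CD11b, is listed under 2 gene entries, with 157 and 232 FPKM for the larger in CHBP- and CHBP+ and 8703 and 13147 reads for the other. The other entry was past 1.5-fold higher at a fold of 1.53, and Ly6c2, with 56.9 and 34.0 FPKM, past 1.5-fold lower at 0.597. Removal of the transcript-length trend described further on moved the log2 ratio of FPKM + 1 of Ly6c2 from -0.73 to -0.41, short of 1.5-fold. That of the larger Itgam entry moved from 0.56 to 0.42. The 9 monocyte and sorting markers summed to 810 and 924 FPKM over 10 entries, both of Itgam included. Of these entries, 5 had log2 ratios above 0, the 2 of Itgam among them, and 5 below, so the sum is not a shared direction. Ly6g, the excluded granulocytic marker, had 46 and 44 reads.

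No JAK or SOCS gene was 1.5-fold apart between the libraries, but they did not move alike. Jak1 and Jak2 mRNA was higher in CHBP+ M-MDSC by 29.1% and 17.1%, and Socs6 and Socs7 by 31.8% and 40.6%. The 4 STAT-inducible feedback genes Cish, Socs1, Socs2 and Socs3 all had folds below 1, between 0.750 and 0.927. All 10 genes were above 1 FPKM in both libraries, and 0 of them reached the 1.5-fold threshold on FPKM + 1, the fold limit of the study. Among the 10948 genes of at least 1 FPKM, 3.42% were at least 1.5-fold higher and 2.89% at least 1.5-fold lower, so a count of 0 among 10 genes is near the background. By reads, the interval lay above 1 for 5 of the 10 (Jak1, Jak2, Tyk2, Socs6, Socs7), below 1 for 3 (Cish, Socs1, Socs3), and held 1 for Jak3 and Socs2. Over the 14162 genes with at least 10 reads, 24.1% lay above and 25.1% below, and over the 9124 genes with at least 336 reads, the number of the least-read member Socs1, 31.6% and 32.9%. These calls compare 2 libraries and not the conditions, and differences beyond counting error were frequent in the whole transcriptome.

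**Figure D1:**
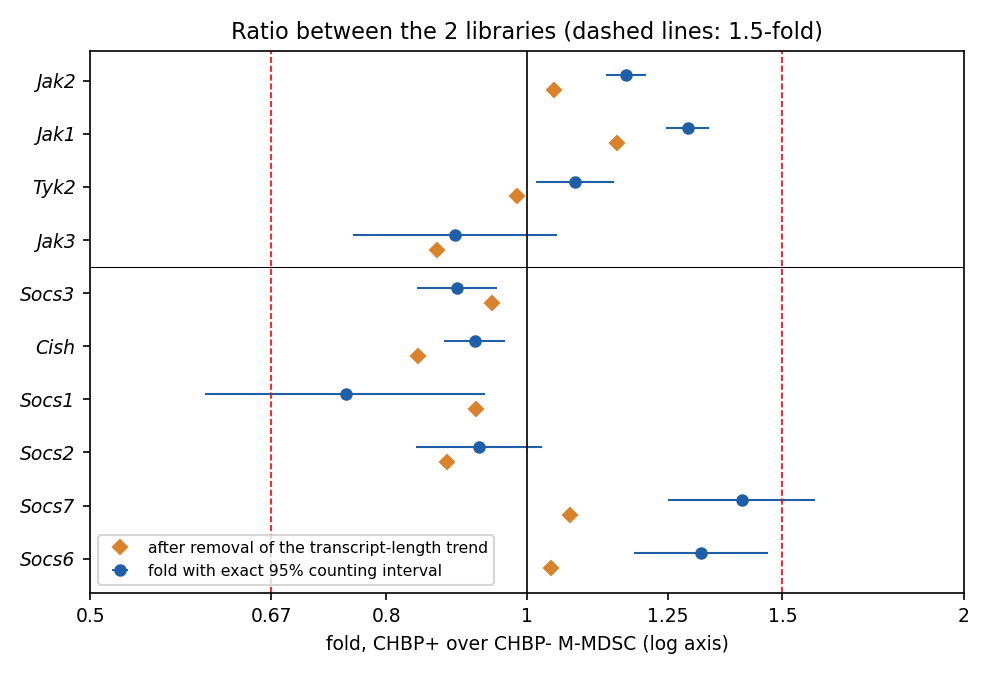
Fold of CHBP+ over CHBP- M-MDSC (x axis, log scale) for the 4 JAK and 6 SOCS-family genes, 1 library per condition. Blue points are folds of reads with exact 95% counting intervals, orange diamonds are folds of FPKM + 1 after the trend with transcript length was removed, and dashed lines mark 1.5-fold in either direction. The blue points run from 0.750 for Socs1 to 1.41 for Socs7, and all diamonds lie between 0.841 and 1.15.

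Jak2 (ENSMUSG00000024789, chromosome 19 from 29251828 to 29313080 on GRCm38), the kinase that GM-CSF and erythropoietin receptors share, was the most abundant of the 4 kinases. It had 6971 reads with GM-CSF and 8059 with CHBP added, which is 84.1 and 98.4 FPKM, a level above that of 95.3% and 96.4% of the 10948 genes. The fold was 1.17 (1.13 to 1.21), so the libraries differed by more than counting error and by less than 1.5-fold.
Jak1 (ENSMUSG00000028530, chromosome 4 from 101152367 to 101265282), the kinase of interferon, interleukin 6 and common gamma chain receptors, had 5947 reads in the CHBP- and 7581 in the CHBP+ library, which is 39.4 and 50.8 FPKM. Its fold of 1.29 (1.25 to 1.34) was the highest of the kinases. The ratio of Jak1 to Jak2 reads, which needs no library total, was 0.853 in CHBP- and 0.941 in CHBP+ M-MDSC, a change of 1.10-fold with an exact conditional 95% interval of 1.05 to 1.16.
Tyk2 (ENSMUSG00000032175, chromosome 9 from 21104069 to 21127346), the partner of Jak1 at type I interferon and interleukin 10 receptors, had 1984 and 2115 reads, or 26.1 and 28.1 FPKM. Its fold of 1.08 (1.01 to 1.15) barely left 1. Jak2 reads gained on Tyk2 reads by 1.08-fold (1.01 to 1.16).
Jak3 (ENSMUSG00000031805, chromosome 8 from 71676296 to 71690575), which serves the common gamma chain and is known for lymphocytes, was low in both libraries. It had 327 reads (2.53 FPKM) in CHBP- and 288 reads (2.26 FPKM) in CHBP+ M-MDSC, above only 22.9% and 19.3% of the 10948 genes, and its fold of 0.892 (0.758 to 1.05) held 1. Jak3 was thus the only kinase with a fold under 1, and the ratio of Jak1 to Jak3 reads went from 18.2 to 26.3, by 1.45-fold (1.23 to 1.71). Lymphocyte markers were lower beside it. The 7 T cell markers, all with reads, summed to 5.93 FPKM in CHBP- and 4.89 FPKM in CHBP+ M-MDSC, and the 5 B cell markers to 41.3 and 28.1 FPKM. Their part in the level of Jak3 was not tested.
Together, the 4 kinases had 15229 reads in CHBP- and 18043 in CHBP+ M-MDSC, a fold of 1.20 (1.17 to 1.23). By deposited FPKM, Jak2 held 55.3% of the summed JAK level in CHBP- and 54.8% in CHBP+ M-MDSC, Jak1 25.9% and 28.3%, Tyk2 17.1% and 15.7%, and Jak3 1.66% and 1.26%.

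**Figure D2:**
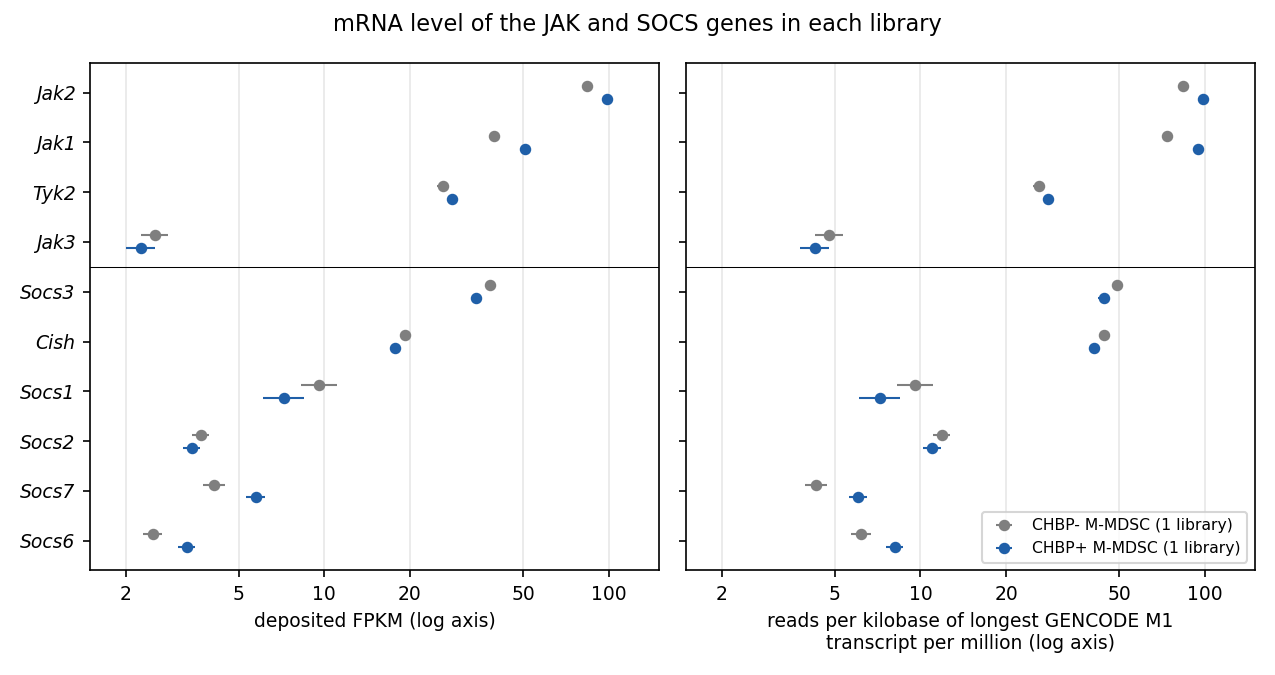
Level of each gene in CHBP- (grey) and CHBP+ (blue) M-MDSC, 1 library each, as deposited FPKM (left) and as reads per kilobase of the longest GENCODE M1 transcript, scaled to the same totals (right), both on log axes, with exact Poisson 95% intervals of the reads as bars. Jak2 is highest in both panels, and Cish and Socs2 are higher on the right, at 44.3 and 11.9 in CHBP-, than on the left, at 19.2 and 3.68.

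Among the SOCS genes, Socs3 (ENSMUSG00000053113, chromosome 11 from 117966079 to 117970047), the inhibitor of interleukin 6 family and G-CSF receptor signalling, was the most abundant. Its reads numbered 2074 in the CHBP- and 1832 in the CHBP+ library, at 38.3 and 34.2 FPKM, with a fold of 0.894 (0.839 to 0.953).
Cish (ENSMUSG00000032578, chromosome 9 from 107296026 to 107302784), the classical STAT5 target whose promoter motifs are printed above, followed with 3432 and 3120 reads, or 19.2 and 17.7 FPKM. Its fold of 0.920 (0.877 to 0.966) was close to that of Socs3, and the ratio of Socs3 to Cish reads, 0.604 and 0.587, changed by 0.972-fold with an interval of 0.897 to 1.05 that holds 1.
Socs1 (ENSMUSG00000038037, chromosome 16 from 10783808 to 10785536), which blocks the JAK catalytic site and limits interferon signalling, had the fewest reads. They numbered 193 and 143, at 9.60 and 7.20 FPKM, with the lowest fold of all 10 genes at 0.750. Its interval, 0.600 to 0.936, was the widest of the 10 and reached past 1.5-fold lower.
Socs2 (ENSMUSG00000020027, chromosome 10 from 95385362 to 95417180), the feedback inhibitor of growth hormone signalling, had 830 and 760 reads, or 3.68 and 3.41 FPKM. The fold was 0.927 (0.839 to 1.02), and a difference was not detectable at this depth.
These 4 genes summed to 6529 reads in CHBP- and 5855 in CHBP+ M-MDSC, a fold of 0.908 (0.876 to 0.941). Their folds were all below 1, and so was the ratio for 53.7% of the 10948 genes.

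Socs6 and Socs7 went the other way. Socs7 (ENSMUSG00000038485, chromosome 11 from 97362551 to 97398542), an adaptor-like member, had 497 reads without and 690 with CHBP, at 4.08 and 5.74 FPKM. Its fold of 1.41 (1.25 to 1.58) was the highest of the 10 genes, and the upper bound passed 1.5. Socs6 (ENSMUSG00000056153, chromosome 18 from 88665224 to 88927481), known to bind the receptor kinase KIT, had 614 and 799 reads, or 2.49 and 3.28 FPKM, and a fold of 1.32 (1.18 to 1.47). Both genes were among the lower expressed of the family in both libraries.
Relative to the summed reads of Cish, Socs1, Socs2 and Socs3, the reads of Socs6 and Socs7 went from a ratio of 0.170 to 0.254, by 1.49-fold (1.37 to 1.63 by the exact conditional interval). Within the family, Socs7 gained on Socs1 by 1.87-fold (1.46 to 2.41). These are the longest and the shortest transcript of the 10 genes. On the FPKM + 1 scale the change of Socs7 over Socs1 was 1.71-fold as measured. It was 1.16-fold with the trend with transcript length, described further on, removed. Socs6 and Socs7 over the other 4 genes, taken between member medians on that scale, changed by 1.40-fold before removal and 1.17-fold after. All 6 SOCS genes summed to 7640 and 7344 reads, a fold of 0.973 (0.942 to 1.01) that held 1.

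The balance of kinase to feedback transcript was then read as the ratio of reads within each library. For Jak2 it was 3.36 over Socs3 in CHBP- and 4.40 in CHBP+ M-MDSC, a change of 1.31-fold (1.22 to 1.41). Over Cish it went from 2.03 to 2.58, by 1.27-fold (1.20 to 1.35), and over Socs1 from 36.1 to 56.4, by 1.56-fold (1.25 to 1.96). Jak1 over Socs3 changed by 1.44-fold (1.34 to 1.55) and Jak1 over Socs1 by 1.72-fold (1.37 to 2.16). All 4 kinases over Cish, Socs1, Socs2 and Socs3 went from 2.33 to 3.08, by 1.32-fold (1.27 to 1.38). These 6 ratios share genes and come from the same pair of libraries, so they are not separate observations. All were higher in CHBP+ M-MDSC, which follows from numerators with folds above 1 and denominators with folds below 1. Their direction therefore adds nothing to the folds above. Socs6 and Socs7, with a summed fold of 1.36 against 1.20 for the 4 kinases, were not used as denominators. Each interval covers counting error only. On the FPKM + 1 scale, Jak2 over Socs1 changed by 1.51-fold and Jak1 over Socs1 by 1.66-fold. With the length trend removed these were 1.13-fold and 1.25-fold. Jak2 over Socs3 went from 1.30-fold to 1.10-fold by this removal, and Jak1 over Socs3 from 1.43-fold to 1.22-fold. Jak2 over Cish was 1.26-fold before and 1.24-fold after. The ratio of the 4 kinases to the 4 feedback genes, taken between member medians, was 1.23-fold before and 1.12-fold after.

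Transcript length moved with these differences. Across 10508 genes with a transcript in GENCODE M1, the log2 ratio and the longest transcript had a Spearman's rho of 0.66, a description across genes of the same 2 libraries. The median log2 ratio was -0.35 among the 10% of genes of shortest transcript and 0.36 among the 10% of longest. Of the SOCS genes, the one of lowest fold, Socs1, had the shortest transcript at 1220 bases, and those of highest fold, Socs6 and Socs7, the longest at 6036 and 7015 bases. Socs3 (2552 bases), Socs2 (4244) and Cish (4697) lay between, and the kinases spanned 4152 bases for Jak3 to 5030 for Jak2. With the trend removed, the log2 ratio was 0.21 for Jak1, 0.06 for Jak2, -0.02 for Tyk2 and -0.21 for Jak3. It was -0.25 for Cish, -0.18 for Socs2, -0.12 for Socs1 and -0.08 for Socs3, against 0.10 for Socs7 and 0.05 for Socs6. Cish, Socs1, Socs2 and Socs3 thus stayed below 0 and Socs6 and Socs7 above, but all 10 values were smaller than the SD of single genes around the trend, 0.26. Whether the length trend arose from CHBP or from the RNA or library of either condition cannot be told apart.

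**Figure D3:**
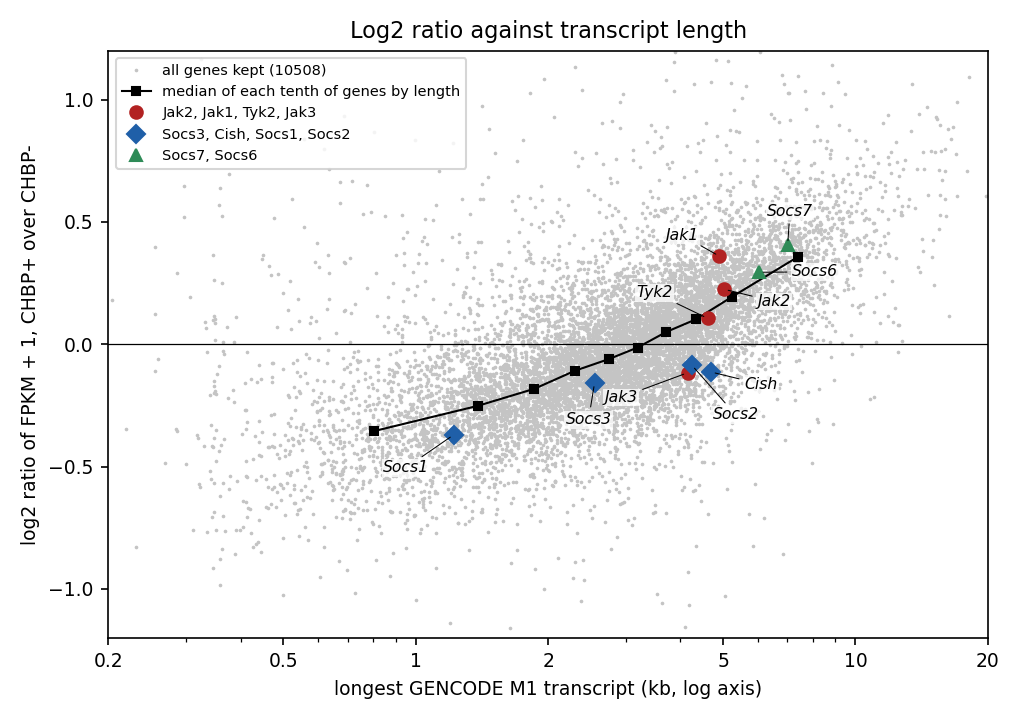
Log2 ratio of FPKM + 1, CHBP+ over CHBP- M-MDSC (y axis), against the longest GENCODE M1 transcript in kilobases (x axis, log scale). Grey dots are single genes, of which 88 lie outside the axes, black squares are medians of 10 equal bins of genes by length, and coloured symbols are the 10 JAK and SOCS genes. Socs1 lies at the short end below 0 and Socs6 and Socs7 at the long end above 0, near the line of medians, while Jak1 lies above it and Jak3, Socs2 and Cish below it.

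The order of levels depended on the gene length used. The deposited FPKM correspond to a length of 10850 bases for Cish, beyond its 6.76 kb span, 13691 bases for Socs2 and 14979 for Socs6, against longest GENCODE M1 transcripts of 4697, 4244 and 6036 bases, while those for Jak2, Tyk2 and Socs1 were within 1% of the longest transcript. By deposited FPKM the kinases ranked Jak2, Jak1, Tyk2 and Jak3 in both libraries with no overlap of their Poisson 95% intervals. Per kilobase of the longest transcript the order held, but Jak2 and Jak1 came close in CHBP+ M-MDSC at 98.4 (96.3 to 100.6) and 94.9 (92.8 to 97.1) reads per kilobase on this scale, with overlapping intervals.
The SOCS genes ranked Socs3, Cish, Socs1, Socs7, Socs2 and Socs6 by deposited FPKM in both libraries. The neighbours Socs7 and Socs2 overlapped in CHBP- M-MDSC (3.73 to 4.45 and 3.43 to 3.94 FPKM), and Socs2 and Socs6 overlapped in CHBP+ M-MDSC (3.17 to 3.66 and 3.05 to 3.51 FPKM). Socs1 and Socs7 also overlapped in CHBP+ M-MDSC (6.07 to 8.48 and 5.32 to 6.18 FPKM). Per kilobase of the longest transcript, Cish reached 44.3 against 49.3 for Socs3 in CHBP- M-MDSC, and Socs2 moved ahead of Socs1 at 11.9 against 9.60. Socs7 fell to the lowest of the 6 genes in both libraries, at 4.30 in CHBP- and 6.04 in CHBP+ M-MDSC. In CHBP+ M-MDSC, Socs6 moved ahead of Socs1 at 8.13 (7.58 to 8.71) against 7.20 (6.07 to 8.48), with overlapping intervals. Folds of reads do not depend on these lengths.

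The rest of the JAK-STAT pathway was read from gene lists, 117 genes in all, of which 83 had at least 1 FPKM. Of the 83, 1 was at least 1.5-fold higher and 4 at least 1.5-fold lower, or 1.20% and 4.82%, against 3.42% and 2.89% of all genes. The median log2 ratio was 0.17 for the 4 JAKs and -0.10 for the 6 SOCS genes, against -0.03 for all genes kept. These medians are before removal of the length trend, after which Jak1 and Jak2 were above 0 and Tyk2 and Jak3 below, as given above.
Of the SOCS family outside the 10 genes, Socs4 had 1294 and 1688 reads, a fold of 1.32 (1.23 to 1.42), and Socs5 had 345 and 367 reads, a fold of 1.08 (0.927 to 1.25). Removal of the length trend moved the log2 ratio of Socs4, with a transcript of 6873 bases, from 0.37 to 0.07. That of Socs5 moved from 0.09 to -0.02. Of the 6 STAT factors analysed here, 5 had a log2 ratio above 0, with a median of 0.16 over the 6, and 0 passed the threshold. With the length trend removed the median was 0.02, and 4 of the 6 were above 0. Stat6, the factor of interleukin 4, was the most abundant at 48.5 and 51.8 FPKM, followed by Stat5b, a factor of GM-CSF signalling, at 15.8 and 18.2 FPKM.
Of 38 receptor chains that carry or pair with JAKs, 25 had at least 1 FPKM and 1 of them passed. Il10ra, the interleukin 10 receptor chain that binds Jak1, was lower at 9.59 against 15.7 FPKM, a fold of 0.611 (0.570 to 0.655). Il6st, the gp130 chain, named after its values were seen, had 1106 and 1762 reads, a read fold of 1.61 (1.495 to 1.741), but stayed under the threshold on FPKM + 1 with a log2 ratio of 0.57. With the length trend removed its log2 ratio was 0.39. Csf2rb, the common beta chain that brings Jak2 to the GM-CSF receptor, was the most abundant at 715 and 903 FPKM, followed by Csf2rb2 at 264 and 324 FPKM. Removal of the length trend moved the log2 ratio of Csf2rb from 0.34 to 0.19 and that of Csf2rb2 from 0.29 to 0.16. Epor, named because CHBP derives from erythropoietin and not by the rule for named genes, had 17 and 10 reads, and its fold of 0.596 (0.244 to 1.38) was not distinguishable from 1 at this depth.
Of 29 cytokines that act through JAKs, 12 had no read in either library, which allows a level of up to 3 reads, or 0.182 CPM (reads scaled to the library total) for CHBP- and 0.184 CPM for CHBP+. The 8 cytokines of at least 1 FPKM all had log2 ratios below 0, with a median of -0.13, and 0 of them passed the threshold. With the length trend removed this direction did not hold, as 5 of the 8 were above 0 and the median was 0.05. The highest were Ebi3, a subunit of interleukins 27 and 35, at 64.1 FPKM in CHBP- M-MDSC and a fold of 0.780, and oncostatin M (Osm) at 20.3 and 19.2 FPKM.
Among 14 phosphatases, PIAS proteins and other inhibitors of the pathway, Cbl passed the threshold. Cbl, a ubiquitin ligase for activated tyrosine kinases, was higher at 6190 against 3439 reads, a fold of 1.82 (1.75 to 1.90). Ptpn6, which encodes the phosphatase SHP-1, had 69.6 and 61.3 FPKM, and Ptpn1 38.2 and 39.4 FPKM.
The ubiquitin ligase that the SOCS box recruits had 10 of its 12 listed symbols in the data, since elongins B and C stand under their older symbols Tceb2 and Tceb1. Tceb2 was lower at 85.1 against 133 FPKM, a fold of 0.641 (0.582 to 0.705), the 1 gene of the 10 that passed. Nedd8, which is conjugated to cullins, had 76.6 and 61.6 FPKM. Both have short transcripts of 494 and 602 bases, and with the length trend removed the log2 ratio was -0.29 for Tceb2 and 0.03 for Nedd8.
Among 20 genes known as STAT5 or STAT3 targets, 15 had log2 ratios below 0 and 2 passed, where 53.7% of all genes kept were below 0. The other 5 were above 0, up to 0.41. With the length trend removed, 14 of the 20 were below 0. Activity of the STAT factors was not tested. Bcl2l1, which encodes the survival protein BCL-XL, was lower at 358 against 893 reads, a fold of 0.406 (0.358 to 0.459). Gfi1, a myeloid transcriptional repressor, was lower at 336 against 659 reads, a fold of 0.516 (0.451 to 0.590). Pim1, a kinase induced by STAT5, was the most abundant at 236 and 212 FPKM, beside Mcl1 at 221 and 212 FPKM. With the length trend removed, the log2 ratio was 0.65 for Cbl, -0.68 for Il10ra, -0.87 for Bcl2l1 and -0.75 for Gfi1.

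**Figure D4:**
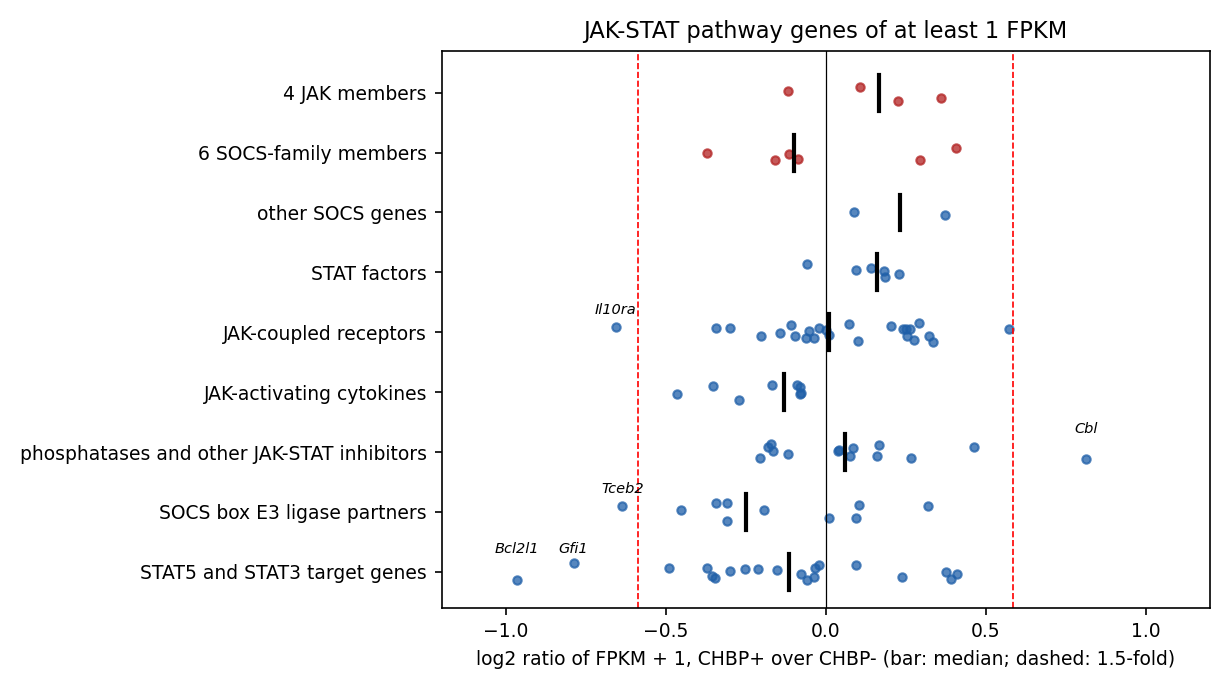
Log2 ratio of FPKM + 1, CHBP+ over CHBP- M-MDSC (x axis), for the 4 JAK and 6 SOCS-family genes (red) and for the genes of at least 1 FPKM in each pathway list (blue, 1 row per list). Black bars are medians, dashed lines mark 1.5-fold, and the genes past them (Il10ra, Cbl, Tceb2, Bcl2l1 and Gfi1) are named, with none of the red points past the lines.

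Counting could touch a few of these values. In the deposited spans, Jak1 overlapped Raver2, Jak3 overlapped Insl3, Tyk2 overlapped 1700084C06Rik and Cish overlapped Gm17040 and Gm17041. None of these neighbours had more than 13 reads in a library, against at least 288 for the gene it overlaps. Jak2, Socs1, Socs2, Socs3, Socs6 and Socs7 overlapped no listed gene.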

How the data were processed

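Single-end RNA-seq reads of 1 library per condition were used, grouped by the treatment label. The authors filtered reads with Seqtk. Their methods name TopHat2, HT-seq and mm9, whereas the submitters' processing notes name HISAT2 2.0.4, Cufflinks 2.1.1, Cuffdiff and GRCm38. Of 10273 genes matched to RefSeq GRCm38.p6 by symbol, 99.9% overlapped it at the deposited coordinates, so GRCm38 is given. How strand and multi-mapping reads were counted is not given in the sources used here.

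The deposited counts are raw reads per gene. The deposited FPKM equal those counts divided by the library total and by 1 length per gene. The log2 ratio used FPKM + 1, and genes that reached 1 FPKM in either library were kept. With 1 library per condition no dispersion can be estimated, so neither a count model nor a P value was used. Ratios of reads between genes carry exact conditional intervals (Fisher). The length trend was a least-squares polynomial of degree 3 in log10 length. Transcript lengths are from GENCODE M1, matched by gene identifier.

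The members and gene lists were chosen with earlier results of these data known. One gene of the lists is not reported here and is left out of their counts. Named genes are the 10 members, genes of the pathway lists at least 1.5-fold apart on FPKM + 1, the 2 of highest mean FPKM in each pathway list, and overlapping genes with reads. Marker genes fall outside this rule and are given as list sums, with the genes of the sort beside them. Of the lists not summed in the results, 11 neutrophil markers had summed FPKM of 2120 in CHBP- and 1543 in CHBP+. Sums were 799 and 677 for 8 dendritic cell markers and 1305 and 602 for 7 erythroid markers. For 8 mast cell and basophil markers they were 340 and 285. Sums follow the most abundant members. Of those of at least 1 FPKM, 2 of 11, 1 of 5, 0 of 6 and 2 of 8 had log2 ratios above 0, in the same order. In the last list the highest was 1.04, with 1 gene past 1.5-fold higher and 1 past 1.5-fold lower. The part of these markers in any result was not tested. Alternatives were a pseudocount of 0.1, other filters, centring on the median, TMM scaling (edgeR 4.0.16 in R 4.3.3), a fold of 2, CPM, summed overlapping genes, 99% intervals and 2 length trends. Python 3.11.15, numpy 2.4.6, pandas 2.3.3, scipy 1.17.1 and matplotlib 3.10.9 were used, and the intervals and trend removal were tested on simulated data.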

Additional observations from a re-analysis of the deposited data

How the results depend on the processing

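The count of 0 members at least 1.5-fold apart held under all 9 alternatives, and the number of members whose interval left out 1 was 8, 8 with TMM scaling and 6 with 99% intervals. Over all genes, the 374 higher and 316 lower became 665 and 571 when 0.1 was added to FPKM, 218 and 209 under a minimum of 5 FPKM and 85 and 46 at a fold of 2. The number higher was 609 with CPM. With the deposited-length trend removed 312 were higher and 168 lower. Removing the trend with the longest GENCODE M1 transcript, an alternative added once the data had been seen, gave 229 and 111. The share of calls that were higher was 54.2% as reported, 65.0% and 67.4% under the 2 length trends and 64.9% at a fold of 2. The 5 pathway genes past the threshold were 0 at a fold of 2 on FPKM + 1, although the fold of reads of Bcl2l1 was 0.406 (0.358 to 0.459). A higher fold or FPKM minimum lowers these counts by construction, and the causes of the other shifts were not tested.

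The log2 ratios of the members kept their sign and stayed in their counting interval with a pseudocount of 0.1, with every gene kept, under centring on the median, TMM scaling and CPM, and with summed overlapping genes, as did the 7 members left at a minimum of 5 FPKM. Removal of the trend with the deposited length put 5 of 10 outside that interval, none with a change of sign. With the longest transcript 6 of 10 lay outside, and 1, Tyk2, changed sign from 0.11 to -0.02. Counting intervals were widest for Socs1, Jak3 and Socs7. No paired analysis was possible because each condition has 1 library, and no replicate could be left out.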
